A study of Mus musculus with 4 samples.

Results

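The mitochondrial respiratory chain is built from 5 protein complexes, and the nuclear genes for their subunits were read in cultured mouse vascular smooth muscle cells given siRNA against the circular RNA circEsyt2. Genes were taken by symbol: Nduf for complex I, Sdha to Sdhd for complex II, Uqcr for complex III, Cox4 to Cox8 for complex IV and Atp5 for complex V. This gave 93 of the 22488 genes listed. Of these, 84 encode subunits (38, 4, 8, 18 and 16 in complexes I to V), and 9 share only a prefix: the complex I assembly factors Ndufaf1 to Ndufaf8, and Atp5s. A prefix is not a full parts list: Cyc1, a catalytic subunit of complex III, falls outside it. Ndufa4 and Ndufa4l2 fall in complex I by name, although NDUFA4 is now regarded as a subunit of complex IV.

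Complex I takes electrons from NADH and complex II takes them from succinate, a step of the citric acid cycle. Complex III passes them to cytochrome c, complex IV hands them to oxygen, and complex V (ATP synthase) makes ATP from the proton gradient that complexes I, III and IV build. Most subunits are encoded in the nucleus and imported, but all complexes except II also hold subunits encoded by mitochondrial DNA. Smooth muscle cells use both this chain and glycolysis for their ATP.

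Cells of the C57BL/6 strain at passages 4 to 10 were transfected for 48 hours with scramble siRNA, a control sequence (2 libraries), or with circEsyt2 siRNA (2 libraries). No untransfected cells were compared. Whether the replicates are separate cultures is not said in the labels, and the p-values then reflect a spread between libraries that may be technical. The level of the circle itself was not analysed here, and its host gene Esyt2 did not pass the test (log2 fold change −0.22, SE 0.13, adjusted p = 0.318, limma). Values are FPKM, which divide a gene's reads by its length and by the library total. The length covers all annotated exons of a gene, which can lower its value, so comparisons of level between genes are rough. Reads assigned to genes, recovered from the digits of the FPKM values, totalled 2516428 to 4116791 per library, and the median subunit gene had 140.5 to 253.5 of them. In bulk RNA, fewer cells of a type and less RNA per cell cannot be told apart.

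The siRNA library of replicate 1 stood apart before any comparison. The 9 listed hepatocyte markers, led by Alb, summed to 3073 FPKM in siRNA replicate 1 and 93.8 in siRNA replicate 2, against 12.6 and 4.05 with scramble siRNA, and all 9 were highest in siRNA replicate 1. Macrophage markers summed to 3.60 to 5.92 FPKM in the other 3 libraries and 29.3 in that library, with 4 of 5 highest there. Epithelial markers summed to 0.432 to 1.21 and 13.2, with 4 of 4. Other lists were higher in both siRNA libraries. Endothelial markers summed to 2.97 and 2.87 FPKM with scramble siRNA, then 7.81 and 6.00, with Kdr called higher. Striated muscle markers summed to 6.92 and 7.89, then 14.6 and 15.1, with Acta1 called higher. Adipocyte markers summed to 1.30 and 0.978, then 2.14 and 1.47. The 8 smooth muscle markers, of the labelled cell type, were above 0 in all 4 libraries. They summed to 1961 and 2045 FPKM in scramble and 1179 and 1086 in siRNA libraries, and 6 of the 7 tested were lower. Most of the sum was Acta2 (1421 and 1446, then 883 and 829 FPKM) and Myl9, while Des was at 0.42 to 1.04. The 5 fibroblast markers summed to 631 and 565 FPKM, then 445 and 504, and 2 of them were lower. Results below are therefore given for each siRNA library as well.

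Differences between groups were tested with limma on the log2(FPKM + 1) scale. The fit took in 11290 genes whose FPKM averaged at least 1, and a gene is said to rise or fall where its p, adjusted over all of them by the Benjamini-Hochberg method, was under 0.05. Of the 93 genes, 89 had that level. One of them, Cox7b2, had it only through the siRNA libraries, being at 0 in both scramble libraries, so its call is left out of the counts. Of the other 88, 2 rose (Ndufa1 and Cox6a1) and 3 fell (Uqcrh, Cox4i2 and Atp5c1). Over all tested genes 5.47% rose and 7.26% fell. In either direction 5.68% of the 88 were called, against 12.7% of all tested genes, also where genes at 0 throughout a group were left out. At an unadjusted p under 0.05 were 18.2% of the 88 and 30.1% of all tested genes. On the recovered reads, limma's voom called 18.4% of all tested genes and 5.62% of the 89. Among the 89 it called 3 higher (Ndufa1, Cox6a1 and Atp5mpl) and 2 lower (Uqcrh and Atp5c1). The 5 calls of limma on FPKM (Ndufa1, Cox6a1, Uqcrh, Cox4i2 and Atp5c1) and that of Cox7b2 were lost when either scramble library was left out. No gene at all was called in those fits. The 9 genes that share only a prefix had 0 calls in limma and in voom, and 0 at an unadjusted p under 0.05.

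For the genes that passed the test, the bases just before the annotated start are shown, since they differ in the motif letters they hold. They are from RefSeq on GRCm38.p6 and limited to bases outside every GENCODE M21 exon, printed 5′ to 3′ on the gene's strand with matches in capitals. Cox4i2 had no entry in the table used. At Ndufa1 only 6 of the 150 bases lay outside exons of its neighbour Rnf113a1, so none is printed.
Cox6a1 (chr5:115348982-115349108, minus strand): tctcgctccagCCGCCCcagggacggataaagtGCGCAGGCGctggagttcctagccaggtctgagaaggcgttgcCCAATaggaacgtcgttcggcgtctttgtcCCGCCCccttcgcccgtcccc
Cox7b2 (chr5:71548206-71548355, minus strand): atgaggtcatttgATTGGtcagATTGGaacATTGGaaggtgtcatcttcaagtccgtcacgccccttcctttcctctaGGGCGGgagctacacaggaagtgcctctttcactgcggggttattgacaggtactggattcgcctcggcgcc
Uqcrh (chr4:116075072-116075220, minus strand): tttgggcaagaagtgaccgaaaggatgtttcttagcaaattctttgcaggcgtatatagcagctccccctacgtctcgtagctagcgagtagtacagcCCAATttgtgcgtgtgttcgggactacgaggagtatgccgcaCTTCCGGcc
Atp5c1 (chr2:10080511-10080592, minus strand): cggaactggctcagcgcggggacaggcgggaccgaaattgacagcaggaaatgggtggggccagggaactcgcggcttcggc
The patterns searched, on both strands and with overlaps allowed, were GCGCANGCG (nuclear respiratory factor 1, NRF1, an activator of respiratory chain genes), CCGGAAG (ETS factors, among them GABP), GGGCGG (SP1), AAGATGG (YY1), CCAAT (NF-Y), TATAAA (the TATA box) and TGACGTCA (CREB). In the stretches shown, the letters of Cox6a1 held an NRF1 match, 2 SP1 matches and a CCAAT match. The Cox7b2 stretch held an SP1 match and 3 CCAAT matches, and that of Uqcrh an ETS and a CCAAT match. The 82 bases of Atp5c1, which begin beside an exon of the neighbouring gene Kin, held none.

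Over the full windows of 250 bases before to 50 after each start, 75 of the 93 genes had an entry, with 80 windows. The NRF1 pattern was in 28.7% of these windows, against 13.4% of the 11239 windows of tested genes and 6.25% of all 32851. For the ETS pattern the shares were 22.5%, 17.8% and 8.86%, and for the YY1 pattern 15.0%, 7.17% and 6.34%. The SP1 pattern was in 43.8% of the respiratory chain windows, 62.9% of those of tested genes and 35.7% of all. CCAAT was in 42.5%, 38.0% and 37.4%, TATAAA in 10.0%, 7.62% and 13.6%, and TGACGTCA in 5%, 3.03% and 1.79%. By complex, the NRF1 pattern was found at 8 of 33, 2 of 3, 2 of 5, 1 of 13 and 7 of 14 subunit genes of complexes I to V. Of the 5 genes past the test with an entry, the full windows of Cox6a1 and Atp5c1 held it, and those of Ndufa1, Cox7b2 and Uqcrh did not. A match describes letters only and is not a binding site.

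Summed over a complex, the subunit genes kept much the same order of level in all 4 libraries. Complex I summed to 1222 and 1349.8 FPKM with scramble siRNA, against 1501 and 1290.5 with circEsyt2 siRNA. Complex IV summed to 1230.2 and 1214, then 1557 and 1260.1, and complex V to 1123 and 1119.7, then 1248 and 1124. Complexes I, IV and V thus held similar totals, and complexes II and III less. Complex III summed to 525 and 548 FPKM, then 650.2 and 531, and the 4 genes of complex II to 204 and 204, then 219.6 and 173. In each complex the sum of siRNA replicate 1 was the highest of the 4. In complexes IV and V both siRNA sums were above both scramble sums, in complex V by about 1 FPKM for replicate 2, and in complexes I, II and III replicate 2 was below at least 1 scramble library. With 2 libraries against 2, an exact permutation test of a sum cannot give a p below 0.333, so none was run.

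**Figure D1:**
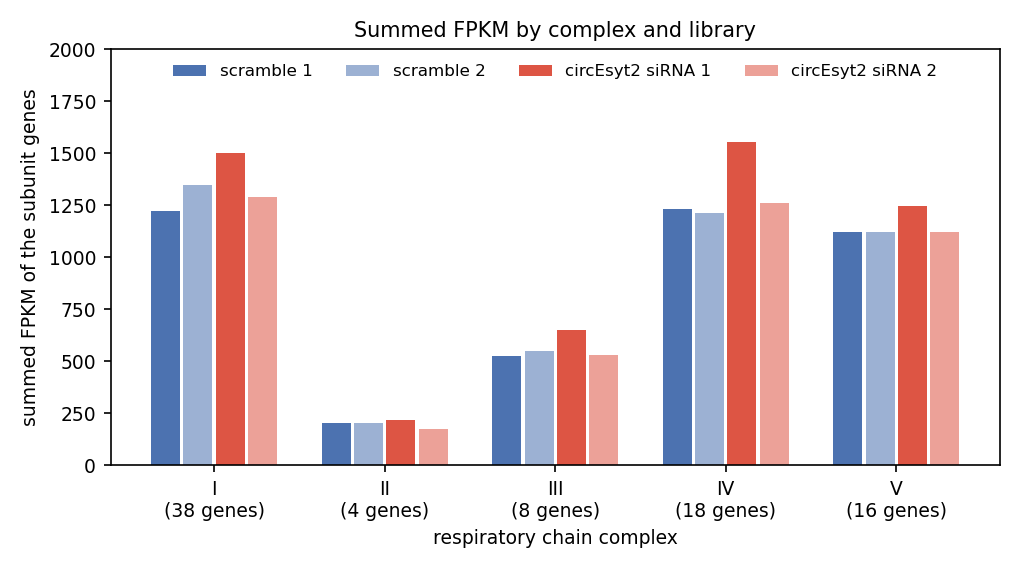
Summed FPKM of the subunit genes (vertical axis, from 0) for each complex (horizontal axis, with its number of genes), 1 bar per library. In every complex the bar of circEsyt2 siRNA replicate 1 is the tallest, for example 1557 FPKM for complex IV against 1214 to 1260.1 in the other 3 libraries.

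As a share of all FPKM in a library, the 84 subunit genes made up 1.52% and 1.503% with scramble siRNA, against 1.67% and 1.54% with circEsyt2 siRNA. Across the 80 tested subunits, levels in the 2 groups had a Spearman rho of 0.967, about that between the scramble replicates (0.974) or the siRNA replicates (0.971). These are correlations across genes, which are not independent replicates and share their libraries. The median log2 fold change was 0.05 for complex I, −0.04 for complex II, 0.11 for complex III, 0.19 for complex IV (0.13 without Cox7b2) and 0.05 for complex V, against 0.0037 over all tested genes. Moving Ndufa4 and Ndufa4l2 to complex IV left the median of complex I at 0.05 and put that of complex IV at 0.15.

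Most of these genes had a small fold change. In absolute value, the log2 fold change was under 0.5 for 78 of the 89 tested genes (87.6%, or 88.6% without Cox7b2), against 66.6% of all tested genes. The 95% interval of the fold change lay within −1 and 1 for 77 of them (86.5%, or 87.5% without Cox7b2), against 58.7%. The 3 genes past 1 in absolute value were Cox7b2, Cox4i2 and Cox6b2, all isoform genes of complex IV with a low level. Without overlap between the groups, 23 of the 88 genes other than Cox7b2 were higher and 11 lower, where 29.7% of all tested genes were higher and 31.1% lower. The median absolute log2 difference between group means was 0.18 for the 80 tested subunits, between the 0.15 that separated the scramble replicates and the 0.30 that separated the siRNA replicates. Means of 2 libraries vary less than single libraries, so these are unlike measures. Over all tested genes the difference between group means (0.34) was larger than that between either pair of replicates (0.19 and 0.23).

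**Figure D2:**
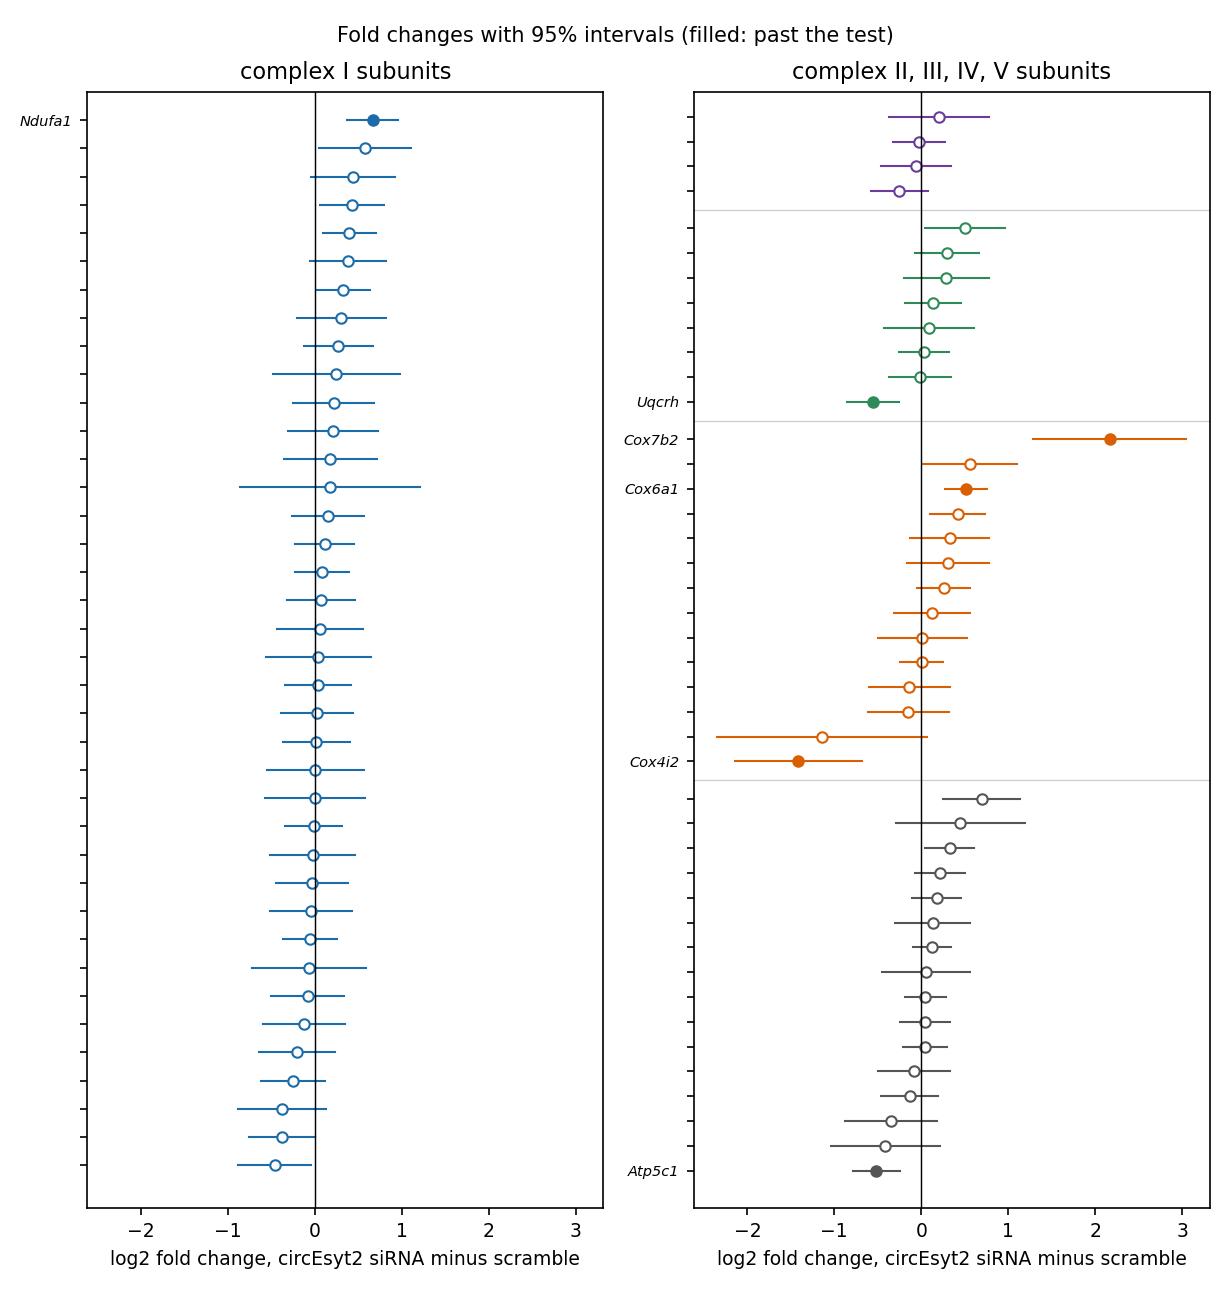
Log2 fold change of the 80 tested subunits on the log2(FPKM + 1) scale, circEsyt2 siRNA minus scramble (horizontal axis), with 95% intervals from limma, grouped by complex and ordered by size. Filled, named points mark the 6 genes past the test, and most open points lie within 0.5 of 0.

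The siRNA libraries differed from each other. Of the tested genes, 71 of 89 (79.8%, or 80.7% without Cox7b2) were higher in siRNA replicate 1 than in replicate 2, against 47.3% of all tested genes. Set against the scramble mean, the median of the 89 was 0.19 in replicate 1 and −0.01 in replicate 2. By complex, the medians in replicates 1 and 2 were 0.19 and −0.01 for complex I, 0.03 and −0.20 for complex II, and 0.29 and 0.10 for complex III. They were 0.37 and −0.0050 for complex IV (0.34 and −0.04 without Cox7b2), and 0.16 and −0.01 for complex V. Only complex III had both medians above 0. Replicate 1 is the library with the high hepatocyte, macrophage and epithelial markers, and their part in this difference was not tested. Between the scramble libraries, 36.0% of the 89 were higher in replicate 1, against 48.8% of all tested genes.

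**Figure D3:**
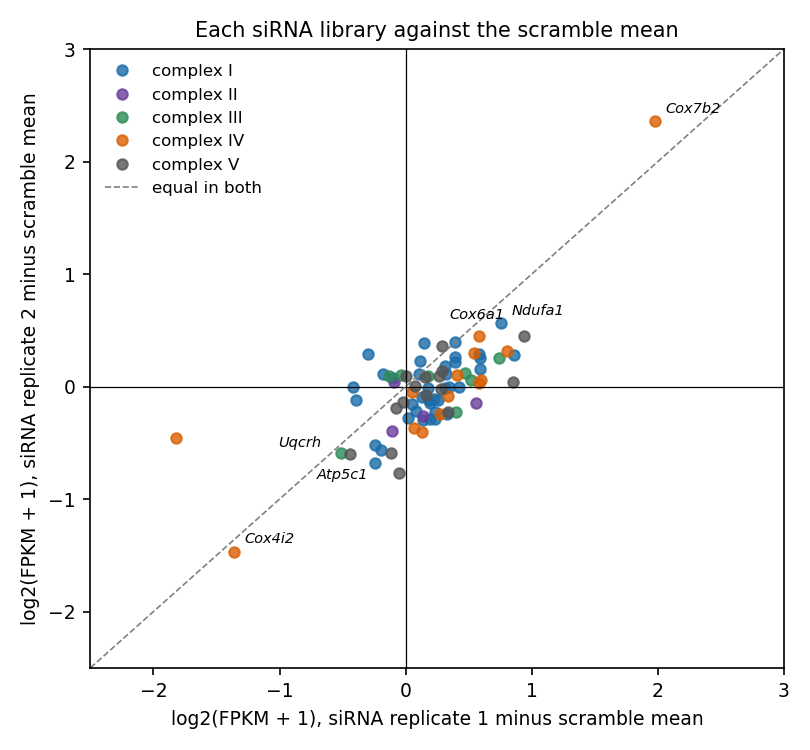
Each of the 80 tested subunits as log2(FPKM + 1) in circEsyt2 siRNA replicate 1 (horizontal) and replicate 2 (vertical) minus the scramble mean, coloured by complex, with the dashed line where both are equal. Most points lie below the line (64 of 80 are higher in replicate 1). The 6 labelled genes past the test differ from the scramble mean in the same direction in both libraries, which their selection by that test largely fixes.

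In complex I, 1 of the 38 subunits rose and 0 fell, where 5.47% of all tested genes rose and 7.26% fell. Of the 38, 7 (18.4%) had an unadjusted p under 0.05 in limma, a lower share than the 30.1% over all tested genes. Ndufa1, a small accessory subunit of the membrane arm needed to assemble the complex, is X-linked (chromosome X, 37187588 to 37191163, minus strand). Scramble libraries held it at 77.8 and 71.3 FPKM and siRNA libraries at 127 and 110.7, from 82, 123, 200 and 145 reads. Both siRNA libraries were above both scramble libraries. The group means were 74.5 ± 4.57 and 119 ± 11.4 (SD, n = 2), which is 1.59-fold higher by mean FPKM. The log2 fold change was 0.66 (SE 0.12, limma adjusted p = 0.0228), a call also lost with eBayes without a trend and without either siRNA library.

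The nuclear core subunits of complex I carry the flavin and the iron-sulfur clusters on the path from NADH to ubiquinone. Ndufs8, which carries iron-sulfur clusters, measured 40.9 and 36.6 FPKM, then 51.0 and 46.5, without overlap (log2 fold change 0.33, SE 0.12, adjusted p = 0.144). Ndufs3, of the matrix arm, measured 25.0 and 27.5, then 19.8 and 24.1, lower and also without overlap (−0.26, SE 0.15, adjusted p = 0.303). Ndufv1, Ndufv2, Ndufs1 and Ndufs7 overlapped between groups, with log2 fold changes of 0.07 for Ndufv1 and 0.0039 for Ndufv2 (the NADH-oxidizing tip), −0.03 for Ndufs1 and 0.22 for Ndufs7. None of these 6 passed the test in limma or in voom. Within the core, Ndufs1, the largest subunit of the complex, had the lowest mean level (12.8 FPKM). That rank depends on the length used, 8086 bases for Ndufs1 and 963 for Ndufs8. By reads, Ndufs1 (248, 458, 344 and 357) was above Ndufs8 (99, 145, 185 and 140).

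The call of complex I lay in its membrane arm. The 16 tested genes of the matrix arm, where NADH is oxidized, had 0 calls, also in voom, and a median log2 fold change of 0.02. The 19 of the proton-pumping membrane arm had the call of Ndufa1 and a median of 0.11. At an unadjusted p under 0.05 in limma were 3 (18.8%) and 4 (21.1%) of them, against 30.1% of all tested genes. The summed FPKM of the matrix arm was 517 and 526, then 595 and 515, and that of the membrane arm was 607 and 694, then 791 and 682. Both arms were highest in siRNA replicate 1. Ndufa2, a small matrix-arm subunit with the highest mean level of complex I (109 FPKM), measured 113 and 98.5, then 119.8 and 105 (log2 fold change 0.08, adjusted p = 0.692). Ndufa5, also of the matrix arm, had the most negative value of the complex, with 39.3 and 37.4 FPKM against 32.2 and 23.5 (−0.46, SE 0.17, adjusted p = 0.136). It passed the test without siRNA replicate 1 when the filter on low values used only the other 3 libraries. Of the 38 subunits, 9 were higher and 3 lower without overlap, against 29.7% and 31.1% of all tested genes. The 8 assembly factors by prefix, which build the complex but leave it, had a median of −0.01 and levels of 2.81 to 15.1 FPKM.

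Complex II, the 4-subunit succinate dehydrogenase with no mitochondrially encoded part, had 0 calls in limma and in voom, and 0 genes at an unadjusted p under 0.05. Over all tested genes these shares were 12.7%, 18.4% and 30.1%. Sdha, the flavoprotein that oxidizes succinate, measured 41.2 and 43.0 FPKM, then 46.5 and 34.9. Sdhb, the iron-sulfur subunit, measured 39.0 and 43.1, then 60.7 and 37.0, so that its siRNA libraries lay on either side of the scramble libraries. Of the 2 membrane anchors, Sdhc measured 33.5 and 35.8, then 32.5 and 35.6, and Sdhd, the most abundant of the 4, measured 90.1 and 82.5, then 79.8 and 65.5. Sdhd alone did not overlap between the groups, and was lower (log2 fold change −0.25, SE 0.14, adjusted p = 0.266). The 95% intervals were −0.46 to 0.34 for Sdha, −0.37 to 0.78 for Sdhb, −0.32 to 0.28 for Sdhc and −0.58 to 0.08 for Sdhd, so log2 changes past 1 in either direction lay outside all 4.

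In complex III, 1 of 8 subunits fell and 0 rose, where 7.26% of all tested genes fell and 5.47% rose. Uqcrh, the acidic hinge protein at the docking site of cytochrome c (chromosome 4, 116066965 to 116075071, minus strand), measured 71.6 and 82.7 FPKM with scramble siRNA, against 53.7 and 50.7 with circEsyt2 siRNA, from 223, 421, 250 and 196 reads. Both siRNA libraries were below both scramble libraries. The means of 77.2 ± 7.80 and 52.2 ± 2.13 FPKM (SD, n = 2) put it 1.48-fold lower, with a log2 fold change of −0.55 (SE 0.12, limma adjusted p = 0.0385). This call was also lost with no filter on low values, with eBayes without a trend and without either siRNA library.

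Of the 8 genes of complex III, 6 had a fold change above 0. Uqcrq, a small subunit beside cytochrome b, had the most positive value of the complex, with 60.1 and 71.2 FPKM against 110.1 and 78.4 and no overlap (log2 fold change 0.50, SE 0.19, adjusted p = 0.139). Uqcrb, a ubiquinone-binding subunit with the highest mean level of the complex (99.9 FPKM), measured 78.0 and 101, then 128 and 92.7, with overlap. Without overlap, 2 of the 8 were higher and 1, Uqcrh, lower, against 29.7% and 31.1% of all tested genes.

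In complex IV, leaving out Cox7b2, 1 of 13 tested subunits rose and 1 fell, where 5.47% of all tested genes rose and 7.26% fell. Cox6a1, the isoform of subunit VIa found in most tissues (chromosome 5, 115345642 to 115348981, minus strand), was also the most abundant subunit gene of the complex, with a mean of 280.9 FPKM. It measured 229 and 233 FPKM with scramble siRNA, against 346 and 316 with circEsyt2 siRNA, from 405, 672, 915 and 693 reads. Both siRNA libraries were high, and the scramble pair differed by little. The means of 231 ± 2.31 and 331 ± 21.6 (SD, n = 2) make it 1.43-fold higher, with a log2 fold change of 0.52 (SE 0.10, limma adjusted p = 0.0253), a call also lost with no filter on low values, with eBayes without a trend and without either siRNA library.

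Cox4i2 is the minor isoform of subunit IV, known from lung and linked to low oxygen (chromosome 2, 152754173 to 152765037, plus strand). With scramble siRNA it measured 11.6 and 6.17 FPKM, against 2.70 and 2.43 with circEsyt2 siRNA, from 23, 20, 8 and 6 reads. Both siRNA libraries were low. In FPKM, the scramble libraries differed from each other by more than the lower of them did from the siRNA pair. On the log2(FPKM + 1) scale of the test they differed by less than that. The means were 8.88 ± 3.84 and 2.57 ± 0.185 FPKM (SD, n = 2), 3.46-fold lower, and the log2 fold change was −1.41 (SE 0.30, limma adjusted p = 0.0352). The call was also lost with no filter on low values, with eBayes without a trend, with voom on the recovered reads and without either siRNA library. Cox4i1, the main isoform of the same subunit, measured 149.98 and 161 FPKM, then 161 and 151 (log2 fold change 0.0031, SE 0.10, adjusted p = 0.986, 95% interval −0.25 to 0.25). Cox4i2 therefore made up 7.18% and 3.68% of the summed FPKM of the pair with scramble siRNA, against 1.65% and 1.59% with circEsyt2 siRNA.

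Cox7b2, an isoform gene of subunit VIIb known from testis (chromosome 5, 71442824 to 71548205, minus strand), was listed at 0 in both scramble libraries and at 2.94 and 4.13 FPKM with circEsyt2 siRNA, which is 0, 0, 6 and 7 reads. It passed the filter on low values only through the group where it was found. Against a floor of 3 reads per library it was at least 1.99-fold higher (2.63-fold against scramble replicate 2 alone and 1.61-fold against replicate 1 alone). The fitted log2 fold change was 2.17 (SE 0.36, limma adjusted p = 0.0184) and depends on the pseudocount, and the call was also lost with voom on the recovered reads and, where the filter used all 4 libraries, without siRNA replicate 1. Without siRNA replicate 2 it did not pass the filter on the other 3 libraries. Its main isoform Cox7b measured 70.4 and 70.2, then 106.8 and 73.5 FPKM (0.33, SE 0.19, adjusted p = 0.285).

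**Figure D4:**
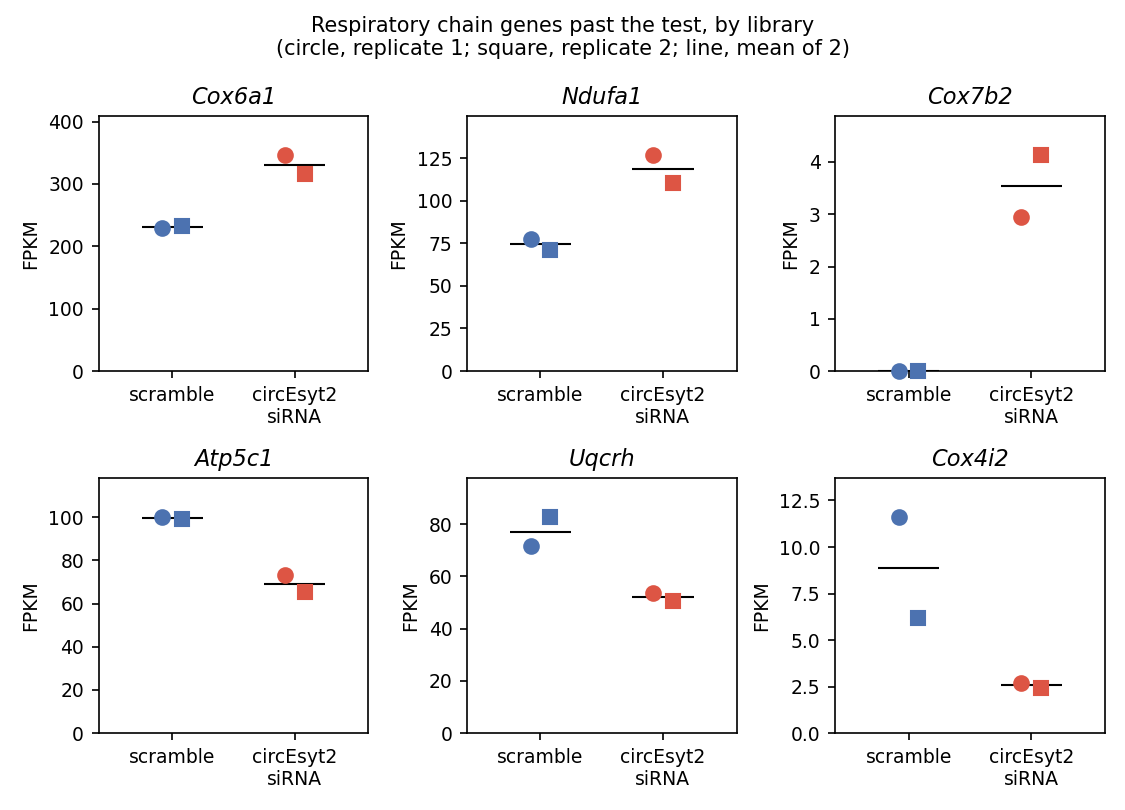
FPKM (vertical axis, from 0, a different scale in each panel) of the 6 genes past the test in each library, with circles for replicate 1, squares for replicate 2 and a line at the mean of 2. In each panel the 2 groups do not overlap, which selection by the test largely fixes, and Cox7b2 is at 0 in both scramble libraries.

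In the other isoform families of complex IV the forms found in most tissues dominated. The heart and skeletal muscle isoform genes were at the limit of detection: Cox8b had 0 reads in all libraries, Cox7a1 had 2 and Cox6a2 had 3, each in a single siRNA library, and Cox8c, known from testis, had 1. A count of 0 allowed up to 2.02 to 3.31 FPKM for Cox8b. Their counterparts Cox8a (245.7 and 250.9, then 329 and 268 FPKM) and Cox7a2 (91.3 and 82.1, then 94.8 and 65.4) were abundant and not called. Cox8a was higher in both siRNA libraries (log2 fold change 0.26, SE 0.12, adjusted p = 0.227). Cox7a2l measured 64.0 and 81.5, then 87.3 and 60.8 FPKM. Cox6b1 measured 217 and 169, then 200.7 and 148, and its minor isoform Cox6b2, known from testis, 7.89 and 4.38, then 0.959 and 4.04, from 22, 20, 4 and 14 reads (−1.14, SE 0.49, adjusted p = 0.184). Most of the difference of Cox6b2 lay in siRNA replicate 1. Of the 13 tested subunits other than Cox7b2, 5 were higher and 2 lower without overlap, against 29.7% and 31.1% of all tested genes.

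Ndufa4 measured 86.0 and 120.7 FPKM, then 103 and 83.8, and its related gene Ndufa4l2, known for induction by low oxygen, 5.44 and 1.77, then 4.37 and 3.21, from 15, 8, 18 and 11 reads. Both overlapped between the groups. Ndufa4l2 took 5.95% and 1.45% of the pair with scramble siRNA, against 4.05% and 3.69% with circEsyt2 siRNA, so the scramble libraries differed more than the groups did.

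In complex V, 1 of 16 subunits fell and 0 rose, where 7.26% of all tested genes fell and 5.47% rose. Atp5c1 encodes the gamma subunit, the shaft that turns inside the F1 head (chromosome 2, 10056016 to 10080510, minus strand). It measured 99.97 and 99.2 FPKM with scramble siRNA, against 73.2 and 65.4 with circEsyt2 siRNA, from 480, 779, 526 and 390 reads. The scramble libraries were nearly equal and both siRNA libraries lay below them. The means of 99.6 ± 0.564 and 69.3 ± 5.56 (SD, n = 2) put it 1.44-fold lower, with a log2 fold change of −0.52 (SE 0.11, limma adjusted p = 0.0358). The call was also lost with no filter on low values, with eBayes without a trend, without siRNA replicate 2 and, where the filter used all 4 libraries, without siRNA replicate 1.

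None of the 4 partners of Atp5c1 in F1 passed the test in limma or voom, and none had an unadjusted p under 0.05. Atp5b, the catalytic beta subunit and the most abundant gene of complex V, measured 258 and 258 FPKM, then 287 and 274 (log2 fold change 0.12, SE 0.09, adjusted p = 0.408), without overlap and higher. Over F1 (5 genes) the sum was 618 and 614 FPKM, then 629 and 607, with a median of 0.05. The 11 genes of the membrane part Fo and the outer stalk had 0 calls and 1 higher in voom. At an unadjusted p under 0.05 in limma were 2 of them (18.2%), against 30.1% of all tested genes. Their median was 0.13, and their sums were 504 and 505, then 619 and 517 FPKM.

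Atp5mpl, a small proteolipid of Fo, had the most positive value of complex V without passing the test. It measured 38.9 and 39.1 FPKM with scramble siRNA, against 75.7 and 53.6 with circEsyt2 siRNA, from 119, 196, 347 and 204 reads (log2 fold change 0.69, SE 0.18, adjusted p = 0.0579). The groups did not overlap, and the siRNA libraries differed from each other by more than the lower of them did from scramble. It was called with a pseudocount of 0.1, with a mean of at least 5 FPKM, with voom on the recovered reads and without siRNA replicate 2. Atp5g1, Atp5g2 and Atp5g3 all encode the same mature subunit c of the rotor ring, with different import sequences. Atp5g3 took 66.6% and 70.6% of their summed FPKM, then 72.4% and 74.6%, while Atp5g2 took 27.2% and 21.1%, then 20.9% and 18.0%. None of the 3 was called (log2 fold changes −0.08, −0.35 and 0.04). Over the 16 subunits, 5 were higher and 3 lower without overlap, against 29.7% and 31.1% of all tested genes. Atp5s, which shares the prefix, measured 3.70 and 3.69 FPKM, then 2.61 and 1.88 (adjusted p = 0.189).

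The 13 subunits encoded by mitochondrial DNA, the partners of these proteins, had 0 calls, also in voom. Limma called 12.7% of all tested genes and voom 18.4%. At an unadjusted p under 0.05 in limma was 1 of the 13 (7.69%), against 30.1% of all tested genes. Their median log2 fold change was −0.16. All 13 were higher in siRNA replicate 1 than in replicate 2, with medians against the scramble mean of 0.06 and −0.32. Summed over the 7 of them above 1000 FPKM (mt-Nd1, mt-Nd2, mt-Nd4, mt-Nd5, mt-Nd6, mt-Cytb and mt-Co1), their level was 4.21 and 4.71 times that of the 84 nuclear subunit genes with scramble siRNA, against 3.78 and 3.53 times with circEsyt2 siRNA. The ratio was lower in both siRNA libraries, a difference that was not tested. The other 6 were listed far lower, for instance mt-Co3 at 75.5 to 124 FPKM beside mt-Co1 at 4710 to 6265.

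Among genes that work with the chain, few were called. Of Cyc1, Cycs and Atpif1, which encode cytochrome c1, cytochrome c and the ATP synthase inhibitor, Cycs fell, with 26.9 and 29.3 FPKM, then 19.5 and 17.0 (log2 fold change −0.60, SE 0.14, limma adjusted p = 0.0439), a call lost with no filter on low values, with eBayes without a trend and when any 1 library was left out. Of 7 tested genes that express mitochondrial DNA, Lrpprc, which stabilizes its messenger RNAs, rose, with 9.91 and 11.2 FPKM, then 17.1 and 18.9 (0.71, SE 0.15, adjusted p = 0.0333), and 0 fell. The call of Lrpprc was lost with eBayes without a trend and when any 1 library was left out. The 33 tested assembly factors outside the prefixes had 0 calls by limma (11 at an unadjusted p under 0.05), as did the 6 tested regulators of respiratory chain transcription (2) and the 16 genes of the citric acid cycle (5). These are 33.3%, 33.3% and 31.2% of the lists, close to the 30.1% over all tested genes. Voom, which called 18.4% of all tested genes, called 0 of the assembly factors and regulators, and 2 higher and 2 lower in the citric acid cycle. Their medians were −0.04, 0.33 and −0.02.

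Counting can blur some of these genes. By sequence, 18 of the 93 had a copy elsewhere of at least 97% identity over 150 bases, among them Atp5l, Uqcrb and Atp5g2, and reads shared with a copy cannot be placed. Atp5g1 and Atp5g2 had such copies and Atp5g3 did not, which may affect their shares of summed FPKM. The 6 genes past the test and Atp5mpl had none, and no exon overlap with another listed gene.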

How the data were processed

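RNA sequencing gave 4 libraries, 2 per group, with groups and replicate numbers from the sample titles. The authors deposited FPKM values, 1 file per library, and the submitters' processing notes name Trimmomatic, HISAT2, featureCounts, GRCm38 and mm10. Tool versions, settings, strand use and annotation release were not given in the sources used here. Library totals and read numbers were recovered from the digits with GENCODE M21 exon lengths: 96.5% to 96.7% of values above 0 gave a whole number within 0.0001, and lengths of 5 of the 93 genes were solved instead. Genes with 2 reads outnumbered those with 1 (1469 to 1873 against 426 to 715), so these units may be single mates. Floors and read numbers cover counting error only.

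Two-sided tests came from limma 3.58.1 (R 4.3.3, eBayes with the trend option) on log2(FPKM + 1), which understates changes of low genes. The steps were tested on simulated data. The members and lists were chosen with earlier results of these data known. Named are all called genes, the most abundant and the most extreme subunits of each complex, complex II, the complex I core (1 gene is not reported here), the isoform families, and up to 2 called genes per direction from each other list. Alternatives numbered 18, of which 4 (filter on the 3 remaining libraries) were chosen after seeing the data. Copies were searched with blastn 2.17.0.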

Additional observations from a re-analysis of the deposited data

How the results depend on the processing

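The counts of called respiratory chain genes, here with Cox7b2 (3 higher and 3 lower), rest on all 4 libraries. Leaving out 1 library gave 0 to 2 higher and 0 to 2 lower (0 to 1027 calls over all genes), with 0 of either without scramble replicate 1 or 2. Without circEsyt2 siRNA replicate 1 it was 0 and 0 with the filter over 4 libraries (2990 genes at an unadjusted p under 0.05), but 1 and 2, and 1027 over all genes, with the filter on the other 3. Without replicate 2 it was 2 and 0, or 1 and 0, with 481 or 500 over all genes. In these fits the lone library is assumed to vary like the other group. With no filter 2 were higher and 0 lower, and with eBayes without a trend 1 and 0, with 577 over all genes. The other planned settings gave 3 or 4 higher and 2 or 3 lower. With the replicate block 2 were higher (Ndufa1 and Cox7b2) and 1 lower (Cox4i2), and 1008 genes over all, with Cox6a1, Uqcrh, Atp5c1, Cycs and Lrpprc no longer called. Same-numbered libraries did not deviate together (correlation −0.05 across genes), so the pairs share only a number.

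Leaving out 1 library put the median log2 fold change of complex I between −0.0492 and 0.19, and of complex II between −0.20 and 0.0269. That of complex III lay between 0.0736 and 0.29, of complex IV, with Cox7b2 included, between −0.0050 and 0.37, and of complex V between −0.0056 and 0.16. For the named genes, 595 of 680 values kept their side of the threshold, 79 calls were lost, 6 were gained and 0 changed direction with a call. Low reads limit Cox7b2, Cox4i2, Cox6b2 and Ndufa4l2 most.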
